A study of Mus musculus with 6 samples.

Results

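The 8 genes described here act in cholesterol synthesis and its control, and were taken from the deposited table by their symbols: Hmgcs1, Mvd, Idi1, Fdft1, Sqle, Lss, Insig1 and Srebf2. Each has 1 entry among the 36172 genes listed, and all 8 are among the 10042 genes that reached 4 RPKM (reads per kilobase of gene, scaled to the total of mapped reads) in at least 1 library. RNA was sequenced from small intestinal tumor organoids, which are epithelial cells of a tumor grown in 3 dimensions in a gel. There were 6 libraries from 3 Trp53 genotypes, and the organoids of each genotype were prepared separately from 2 C57BL/6 mice aged 15 to 20 weeks. All organoids carried an Apc allele truncated at codon 716. The study states that tumor cells of such mice lose the wild-type Apc copy, which it tested in Trp53 +/R270H tumors. Loss in the organoids sequenced here is not stated. Trp53 +/+ organoids kept p53. Trp53 flox/flox organoids carried the LSL R270H allele on both copies without recombination, which leaves them without p53. In Trp53 R270H/R270H organoids both copies had been recombined by villin-CreER in mice given tamoxifen, so that epithelial cells made the p53 missense protein R270H. Tamoxifen is stated for the mice of this genotype, so its effect and that of the allele cannot be told apart.

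Cells make cholesterol from acetyl-CoA. The first steps give mevalonate and then isoprenoid diphosphates, and squalene made from these is closed into a ring and turned into cholesterol. When membrane sterol is low, the protein made from Srebf2 is cut in the Golgi and its released part switches on the genes of these steps, while Insig proteins hold it back when sterol is plentiful. The intestinal epithelium both absorbs cholesterol and makes its own.

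The promoters of these genes are where this control acts, so the 250 bases before the RefSeq transcript start are shown for the 3 genes that passed a test below and for Hmgcs1, whose window was the only one of the members' to hold the sterol element searched for. The sequences are from RefSeq on GRCm38.p6, the assembly behind mm10, and are written 5′ to 3′ on the strand of the gene. Insig1 lies at chr5:28071162-28071411 on the plus strand, Lss at chr10:76531355-76531604 on the plus strand, Mvd at chr8:122443423-122443672 on the minus strand and Hmgcs1 at chr13:119690101-119690350 on the plus strand. The Lss window runs past 76531565, where the gene entry given below begins, so the start used for it lies inside that entry. Capitals mark matches, on either strand, to TCACNCCAC (a form of the sterol regulatory element), CCAAT (bound by NF-Y), GGGCGG (bound by Sp1) and CACGTG (an E-box), and none of the matches shown overlap.
Hmgcs1: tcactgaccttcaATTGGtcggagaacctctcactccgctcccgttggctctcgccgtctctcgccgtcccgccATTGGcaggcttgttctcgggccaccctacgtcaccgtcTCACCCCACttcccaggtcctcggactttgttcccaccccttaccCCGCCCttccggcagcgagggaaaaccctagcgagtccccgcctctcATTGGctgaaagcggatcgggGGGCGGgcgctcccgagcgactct
Mvd: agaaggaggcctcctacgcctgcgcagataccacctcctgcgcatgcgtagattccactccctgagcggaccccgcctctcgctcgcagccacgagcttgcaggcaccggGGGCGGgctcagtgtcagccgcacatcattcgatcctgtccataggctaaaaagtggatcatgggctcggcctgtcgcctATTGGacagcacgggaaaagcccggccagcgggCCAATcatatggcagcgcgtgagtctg
Lss: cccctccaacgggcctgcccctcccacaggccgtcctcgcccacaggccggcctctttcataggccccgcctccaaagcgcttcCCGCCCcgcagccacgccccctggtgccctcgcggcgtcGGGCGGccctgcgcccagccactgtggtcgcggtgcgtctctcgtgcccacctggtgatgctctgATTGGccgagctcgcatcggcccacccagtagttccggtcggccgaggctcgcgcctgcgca
Insig1: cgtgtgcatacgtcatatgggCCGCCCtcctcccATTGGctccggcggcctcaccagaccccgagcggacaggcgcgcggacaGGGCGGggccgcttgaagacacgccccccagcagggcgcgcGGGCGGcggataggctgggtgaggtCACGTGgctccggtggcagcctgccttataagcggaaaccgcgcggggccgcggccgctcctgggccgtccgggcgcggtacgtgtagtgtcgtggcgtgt

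Windows were given for 6 of the 8 members, and each window also holds a short stretch after the start. TCACNCCAC was found in 1 of these 6 windows, that of Hmgcs1, where it begins 137 bases upstream, and in 1.24% of all 32851 windows. CCAAT was found in 6 of 6 and in 37.4% of all windows. GGGCGG was also found in 6 of 6, against 35.7% of all windows. CACGTG was found only in Insig1 among the 6, beginning 101 bases upstream, and in 7.15% of all windows. A match is a description of letters and does not show that a factor binds.

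The targeted gene followed the labels. Trp53 stood at 75.9 and 74.3 RPKM in the Trp53 +/+ libraries, 1.73 and 2.48 in Trp53 flox/flox and 72.8 and 82.7 in Trp53 R270H/R270H. The p53 targets Cdkn1a and Mdm2 fell in both mutant genotypes, by 1.88 and 0.87 in Trp53 R270H/R270H (adjusted p = 0.0353 and 0.0156). Without p53, in Trp53 flox/flox, the pair fell by 2.62 and fell by 1.38 (adjusted p = 0.0206 and 0.00794). The Trp53 flox/flox libraries differed from each other more than the others did, with a median SD between replicates of 0.247 on the log2(RPKM+1) scale over all genes tested, against 0.046 in Trp53 +/+ and 0.062 in Trp53 R270H/R270H. Between the Trp53 flox/flox libraries the difference, replicate 1 minus 2, moved with transcript length: its median was 0.32 in the shortest of 3 bins of genes and -0.36 in the longest. Epithelial markers were present in every library (8 of 8 genes), while of 8 enterocyte markers Apoa1, Apoa4, Lct and Sis were at the floor of 1 RPKM in all 6. Of 8 fibroblast markers, Acta2 reached 11.5 RPKM and Col1a1 2.44 RPKM in Trp53 flox/flox replicate 2, with Col1a2, Col3a1 and Lum at the floor in every library. Of 5 immune markers Ptprc and Cd3e were at the floor throughout, and the summed level was 6.06 to 19.8 RPKM. Cd68, a macrophage gene, was at 10.2 and 9.87 RPKM in Trp53 +/+, 2.06 and 11.1 in Trp53 flox/flox, and 2.22 and 2.41 in Trp53 R270H/R270H, and Lyz2 stood above the floor only in Trp53 flox/flox replicate 2, at 5.67 RPKM. The part of these markers in the results was not tested. In bulk RNA, fewer cells of a type and less RNA per cell cannot be told apart.

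Summed over the 8 genes, the level was 608 and 610 RPKM in Trp53 +/+, 858 and 804 in Trp53 flox/flox, and 722 and 689 in Trp53 R270H/R270H. The 3 genotypes did not overlap in this sum, with Trp53 flox/flox highest and Trp53 +/+ lowest. The summed level of 4 proliferation markers stood in the same order, at 542 and 534, 668 and 668, and 566 and 561 RPKM. Its genes did not share that order. Pcna and Ccnb1 had their highest means in Trp53 flox/flox (347 and 102 RPKM). Mki67 and Top2a had their lowest means there (63.7 and 155 RPKM), with unlike replicates (33.3 and 94.0, and 113 and 197). Summed over 4 Paneth cell markers, the level was 1593 and 1258 RPKM in Trp53 +/+, 552 and 561 in Trp53 flox/flox, and 367 and 403 in Trp53 R270H/R270H. The summed level of 8 epithelial markers was 2948 and 2987 RPKM in Trp53 +/+, 4741 and 3636 in Trp53 flox/flox, and 2578 and 2627 in Trp53 R270H/R270H. For 5 goblet cell genes, of which Muc2 was at the floor in every library, it was 355 and 306, 167 and 131, and 157 and 153 RPKM. The part of these 4 sums in the results was not tested. The genes did not share 1 pattern: Mvd was high in Trp53 flox/flox alone, Lss was high in both mutant genotypes, and Insig1 was highest in Trp53 R270H/R270H. Srebf2 was lowest in Trp53 R270H/R270H. All tests below are limma contrasts on log2(RPKM+1) over all 6 libraries, two-sided and adjusted by Benjamini-Hochberg over the 10042 genes, with a threshold of 0.05. The 3 contrasts share libraries, so they are not independent of each other.

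**Figure D1:**
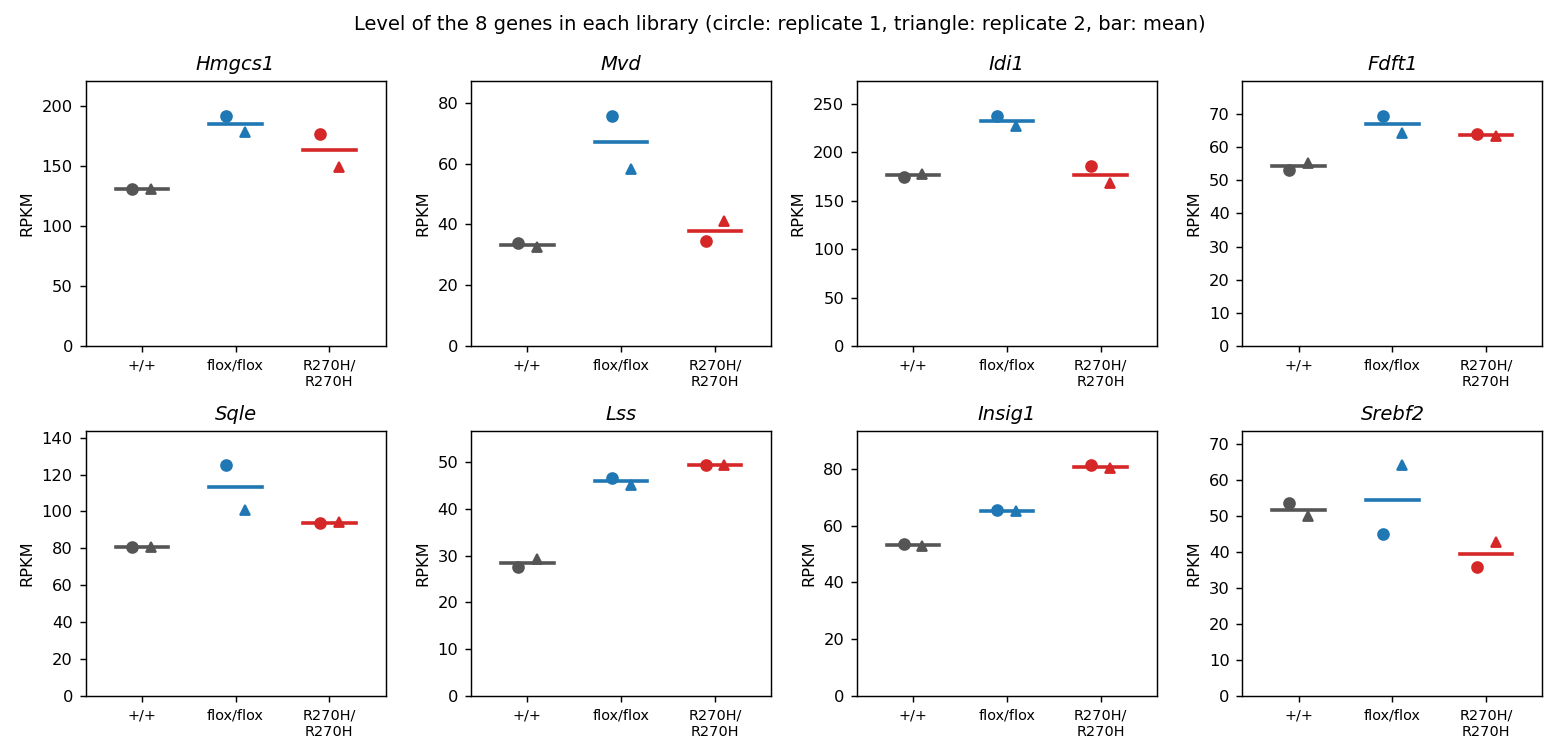
Level of each gene in RPKM (y axis, from 0) in the 6 libraries, by Trp53 genotype (x axis), with a circle for replicate 1, a triangle for replicate 2 and a bar for the mean. Mvd reaches 75.8 and 58.2 RPKM in Trp53 flox/flox and stays at or below 41.2 elsewhere, while Lss is at 27.5 and 29.4 in Trp53 +/+ and at or above 45.2 in the other genotypes.

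The steps up to isoprenoid diphosphates come first. Hmgcs1 (chromosome 13, 119690351 to 119708260) makes HMG-CoA, an early intermediate of the pathway. It stood at 131 and 131 RPKM in Trp53 +/+, 192 and 178 in Trp53 flox/flox, and 177 and 149 in Trp53 R270H/R270H. Both Trp53 +/+ libraries were below the other 4, and the Trp53 flox/flox and Trp53 R270H/R270H libraries did not overlap. The difference from Trp53 +/+ was 0.50 ± 0.12 (log2 ± SE) in Trp53 flox/flox, with an adjusted p of 0.0634, and 0.31 ± 0.12 in Trp53 R270H/R270H, with an adjusted p of 0.161. Neither passed the threshold, and the 95% intervals ran from 0.18 to 0.81 and from -0.01 to 0.62. The value in Trp53 R270H/R270H was 0.19 without its replicate 1 and 0.43 without its replicate 2.

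Mvd (chromosome 8, 122433596 to 122443422) encodes the decarboxylase that makes isopentenyl diphosphate. Its levels were 33.9 and 32.7 RPKM in Trp53 +/+, 75.8 and 58.2 in Trp53 flox/flox, and 34.4 and 41.2 in Trp53 R270H/R270H. Both Trp53 flox/flox libraries lay above the other 4. Mvd rose 2.01-fold in Trp53 flox/flox (33.3 ± 0.788 to 67.0 ± 12.5 RPKM, mean ± SD, n = 2; log2 0.98 ± 0.17, limma adjusted p = 0.03). It was lower in Trp53 R270H/R270H than in Trp53 flox/flox by -0.80 ± 0.17 (adjusted p = 0.0281). Against Trp53 +/+ the Trp53 R270H/R270H value of 0.17 did not pass (adjusted p = 0.525, interval -0.25 to 0.59), and it was 0.30 without Trp53 R270H/R270H replicate 1 and 0.05 without replicate 2. The transcript is short, at 1756 nt, and replicate 1 of Trp53 flox/flox exceeded replicate 2 by 0.38 on the log2 scale. The part of transcript length in these values was not tested, and with either Trp53 flox/flox library alone the rise was 0.79 or 1.16. The call against Trp53 +/+ was lost without Trp53 +/+ replicate 1 or 2 (adjusted p = 0.225 and 0.261) or Trp53 R270H/R270H replicate 1 or 2 (0.109 and 0.11). The call between the mutant genotypes was lost without the same libraries (adjusted p = 0.0968, 0.0967, 0.203 and 0.112).

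Idi1 (chromosome 13, 8885606 to 8892396), the isomerase that interconverts the isoprenoid building blocks, had the highest mean of the 8 genes in every genotype. It stood at 175 and 178 RPKM in Trp53 +/+, 238 and 227 in Trp53 flox/flox, and 186 and 168 in Trp53 R270H/R270H. The Trp53 flox/flox libraries were above the other 4, and the other 2 genotypes overlapped. The difference was 0.39 in Trp53 flox/flox against Trp53 +/+ (adjusted p = 0.0733, interval 0.12 to 0.67). With Trp53 flox/flox as the reference, Trp53 R270H/R270H differed by -0.39 (adjusted p = 0.0524, interval -0.66 to -0.12). Between Trp53 R270H/R270H and Trp53 +/+ it was 0.00, with an interval of -0.27 to 0.27.

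The next 3 members act at squalene and after it. Fdft1 (chromosome 14, 63145150 to 63181687) joins farnesyl diphosphates into squalene. Its levels were 53.1 and 55.2 RPKM in Trp53 +/+, 69.5 and 64.3 in Trp53 flox/flox, and 63.9 and 63.2 in Trp53 R270H/R270H. Both Trp53 +/+ libraries lay below the other 4. Neither mutant genotype passed the test, with 0.30 in Trp53 flox/flox (adjusted p = 0.1, interval 0.06 to 0.54) and 0.23 in Trp53 R270H/R270H (adjusted p = 0.177, interval -0.02 to 0.47). The RefSeq entry of Fdft1 overlaps that of Ctsb, which reached 82.5 RPKM, and how shared reads were assigned is not given in the sources used here.

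Sqle (chromosome 15, 59315092 to 59331193) encodes squalene epoxidase, a rate-limiting enzyme of the pathway. It stood at 80.6 and 80.8 RPKM in Trp53 +/+, 125 and 101 in Trp53 flox/flox, and 93.8 and 94.1 in Trp53 R270H/R270H. The 3 genotypes did not overlap, and Trp53 flox/flox replicate 1 was apart from the rest. The difference from Trp53 +/+ was 0.48 in Trp53 flox/flox (adjusted p = 0.0748, interval 0.15 to 0.81, and 0.32 without replicate 1) and 0.22 in Trp53 R270H/R270H (adjusted p = 0.317, interval -0.11 to 0.55).

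Lss (chromosome 10, 76531565 to 76557139) encodes lanosterol synthase, which closes the sterol ring. It stood at 27.5 and 29.4 RPKM in Trp53 +/+, 46.7 and 45.2 in Trp53 flox/flox, and 49.4 and 49.4 in Trp53 R270H/R270H. Both Trp53 +/+ libraries were below the other 4. Lss rose 1.74-fold in Trp53 R270H/R270H (28.4 ± 1.35 to 49.4 ± 0.0346 RPKM; log2 0.78 ± 0.09, adjusted p = 0.0115). It rose 1.62-fold in Trp53 flox/flox (to 46.0 ± 1.06 RPKM; log2 0.67 ± 0.09, adjusted p = 0.0206). The difference between the mutant genotypes was 0.10, with an interval of -0.13 to 0.34 (adjusted p = 0.427). It was the only member of the 8 that passed against Trp53 +/+ in both mutant genotypes. Without Trp53 +/+ replicate 1 or 2, or Trp53 R270H/R270H replicate 1 or 2, the adjusted p rose to 0.158, 0.142, 0.141 and 0.117 in Trp53 R270H/R270H. In Trp53 flox/flox it rose to 0.214, 0.23, 0.0984 and 0.0985.

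Insig1 and Srebf2 act in the control of the pathway. Insig1 (chromosome 5, 28071412 to 28078662) encodes the endoplasmic reticulum protein that retains the Srebf2 product and is itself one of its targets. Its levels were 53.5 and 52.7 RPKM in Trp53 +/+, 65.4 and 65.3 in Trp53 flox/flox, and 81.3 and 80.3 in Trp53 R270H/R270H. The 3 genotypes did not overlap, and the replicates of each lay close together. Insig1 rose 1.52-fold in Trp53 R270H/R270H (53.1 ± 0.57 to 80.8 ± 0.725 RPKM; log2 0.60 ± 0.09, adjusted p = 0.0189). In Trp53 flox/flox the difference was 0.30 (adjusted p = 0.0875, interval 0.07 to 0.52), and the 2 mutant genotypes differed by 0.30 (adjusted p = 0.0608, interval 0.08 to 0.53). Without Trp53 +/+ replicate 1 or 2, or Trp53 R270H/R270H replicate 1 or 2, the adjusted p of the rise was 0.198, 0.226, 0.18 and 0.144.

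Srebf2 (chromosome 15, 82147269 to 82205379) encodes the transcription factor itself. It stood at 53.4 and 49.8 RPKM in Trp53 +/+, 44.9 and 64.0 in Trp53 flox/flox, and 35.8 and 42.8 in Trp53 R270H/R270H. Both Trp53 R270H/R270H libraries were below the other 4, and the Trp53 flox/flox libraries lay on either side of Trp53 +/+. No contrast passed, with -0.39 in Trp53 R270H/R270H against Trp53 +/+ (adjusted p = 0.245, interval -0.89 to 0.11) and 0.05 in Trp53 flox/flox (adjusted p = 0.86, interval -0.44 to 0.55). The transcript is the longest of the 8, at 5077 nt, and Trp53 flox/flox replicate 1 was below replicate 2 by -0.50 on the log2 scale. Without replicate 2 of Trp53 flox/flox the sign of that genotype's difference turned, to -0.20.

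**Figure D2:**
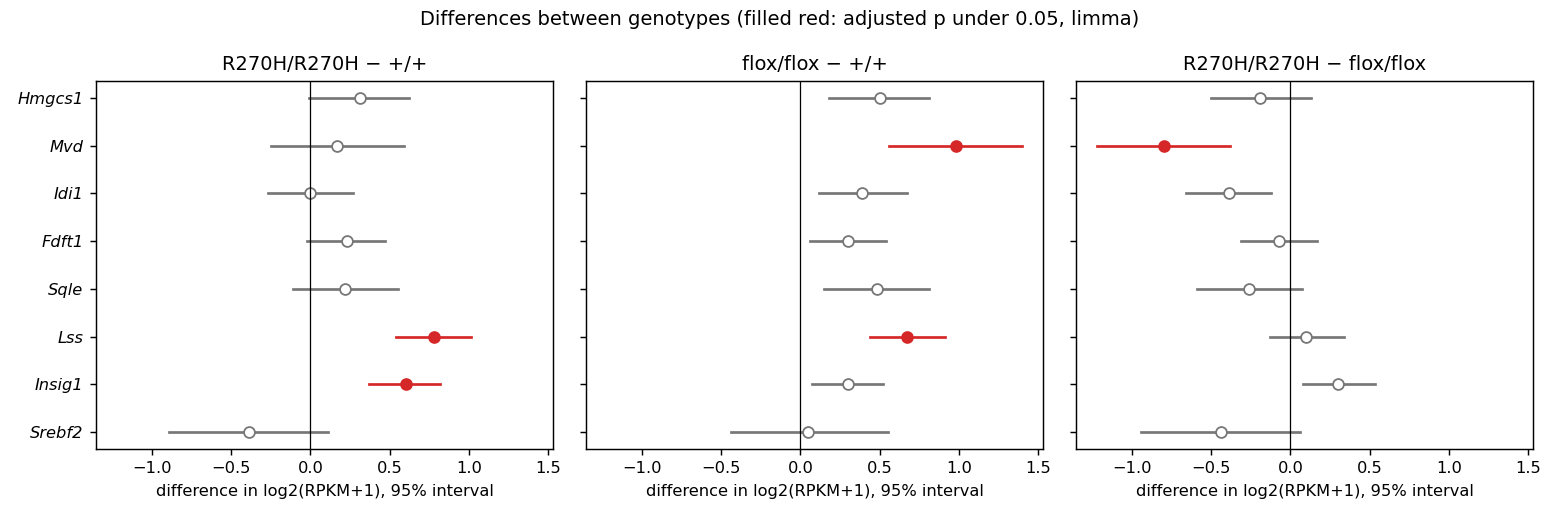
Difference in log2(RPKM+1) between genotypes (x axis) for the 8 genes (y axis), with 95% intervals from limma, in 3 panels for the 3 contrasts. Filled red points passed an adjusted p of 0.05: Lss (0.78) and Insig1 (0.60) on the left, Mvd (0.98) and Lss (0.67) in the middle, and Mvd (-0.80) on the right.

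Against Trp53 +/+, 2 of the 8 genes rose in Trp53 R270H/R270H (Insig1 and Lss) and 0 fell in the limma test, where 5.86% of all genes tested rose and 6.36% fell. Without adjustment, 2 of the 8 had p under 0.05. The share of all genes under that unadjusted limit is not given here, so such counts cannot be set against a background. The libraries did not overlap upwards in 6 of 8, against 44.2% of all genes, and downwards in 1, against 37.6%. The median difference of the 8 was 0.22, beside 0.03 over all genes.

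In Trp53 flox/flox, 2 of 8 rose (Mvd and Lss) and 0 fell, where 4.38% of all genes rose and 6.9% fell. All 8 differences were above 0, and the libraries did not overlap upwards in 7, against 30.6% of all genes. Without adjustment 7 of the 8 had p under 0.05, again with no share over all genes beside it. The median of the 8 was 0.44, beside -0.02 over all genes. Between the mutant genotypes, 1 of 8 was lower in Trp53 R270H/R270H (Mvd), where 24.6% of all genes were called, 13.6% higher and 11.0% lower. Without adjustment 3 of the 8 had p under 0.05. The libraries did not overlap downwards in 6 of 8, against 31.2% of all genes, and upwards in 2, against 36.8%. The median was -0.22, beside 0.03 over all genes.

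The order of levels also differed between genotypes. In Trp53 +/+ it ran Idi1, Hmgcs1, Sqle, Fdft1, Insig1, Srebf2, Mvd and Lss, with the libraries of Fdft1 and Insig1, and of Insig1 and Srebf2, overlapping. In Trp53 flox/flox Mvd followed Sqle, overlapping with Fdft1 as Fdft1 did with Insig1, and Lss was last, overlapping with Srebf2. In Trp53 R270H/R270H Mvd was last, overlapping with Srebf2, and Idi1 overlapped with Hmgcs1.

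The members also varied in how closely they followed one another. Over the 6 libraries, Pearson's r of a gene with the mean standardized profile of the other 7 was 0.94 for Fdft1, 0.93 for Hmgcs1, 0.92 for Sqle, 0.85 for Mvd, 0.77 for Idi1 and 0.75 for Lss. It was 0.39 for Insig1 and -0.18 for Srebf2. These values describe 6 libraries that share genotypes. The genes outside the pathway lists with a profile most like the mean of the members were Cdc6 (r = 0.997), Foxa1 (0.996), Bcl10, Zc3hc1 and Cdv3 (0.995 each). They were picked for the highest r among those of the 10042 genes tested that lie outside the lists. With 6 libraries in 3 genotypes, such a search gives values near 1, so they show no link with the members.

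The wider pathway was described from lists of enzymes. Of 10 genes for the mevalonate and isoprenoid steps, 9 were tested, since Idi2 stood at the floor. In Trp53 flox/flox 4 rose (Fdps, Pmvk, Mvd and Acat2) and 0 fell, with a median of 0.78, where 4.38% of all genes rose, 6.9% fell and the median was -0.02. In Trp53 R270H/R270H 0 were called by limma, 3 had p under 0.05 without adjustment, and the median was 0.23, beside 5.86% of all genes that rose, 6.36% that fell and a median of 0.03. Fdps, which makes farnesyl diphosphate, was at 163 and 172 RPKM in Trp53 +/+, 394 and 289 in Trp53 flox/flox, and 261 and 247 in Trp53 R270H/R270H. It rose by 1.00 in Trp53 flox/flox (adjusted p = 0.0303), and the 3 genotypes did not overlap. Pmvk, the kinase just before Mvd, rose by 0.84 in Trp53 flox/flox (adjusted p = 0.0156) and was lower in Trp53 R270H/R270H than there by -0.43 (adjusted p = 0.0372).

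Of 13 genes from squalene to cholesterol, 3 rose in Trp53 R270H/R270H (Lss, Hsd17b7 and Sc5d) and 3 in Trp53 flox/flox (Lss, Dhcr7 and Ebp), with 0 lower in either. The medians were 0.26 and 0.36, beside 0.03 and -0.02 over all genes, of which 5.86% and 4.38% rose and 6.36% and 6.9% fell. Hsd17b7, a sterol ketoreductase, was at 11.9 and 13.2 RPKM in Trp53 +/+, 17.6 and 15.2 in Trp53 flox/flox, and 23.2 and 22.5 in Trp53 R270H/R270H. It rose by 0.81 in Trp53 R270H/R270H (adjusted p = 0.0183) and was higher there than in Trp53 flox/flox by 0.46 (adjusted p = 0.0454). Ebp, a sterol isomerase, was at 25.3 and 27.2, 63.5 and 46.1, and 31.1 and 30.3 RPKM in the same order. It rose by 1.02 in Trp53 flox/flox (adjusted p = 0.0288) and was lower in Trp53 R270H/R270H than there by -0.80 (adjusted p = 0.0296). Like Mvd, Ebp was high in both Trp53 flox/flox libraries, with replicate 1 above replicate 2. Sc5d, a sterol desaturase, rose by 0.63 in Trp53 R270H/R270H (adjusted p = 0.0198), and Dhcr7, a late reductase, rose by 0.89 in Trp53 flox/flox (adjusted p = 0.0264).

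**Figure D3:**
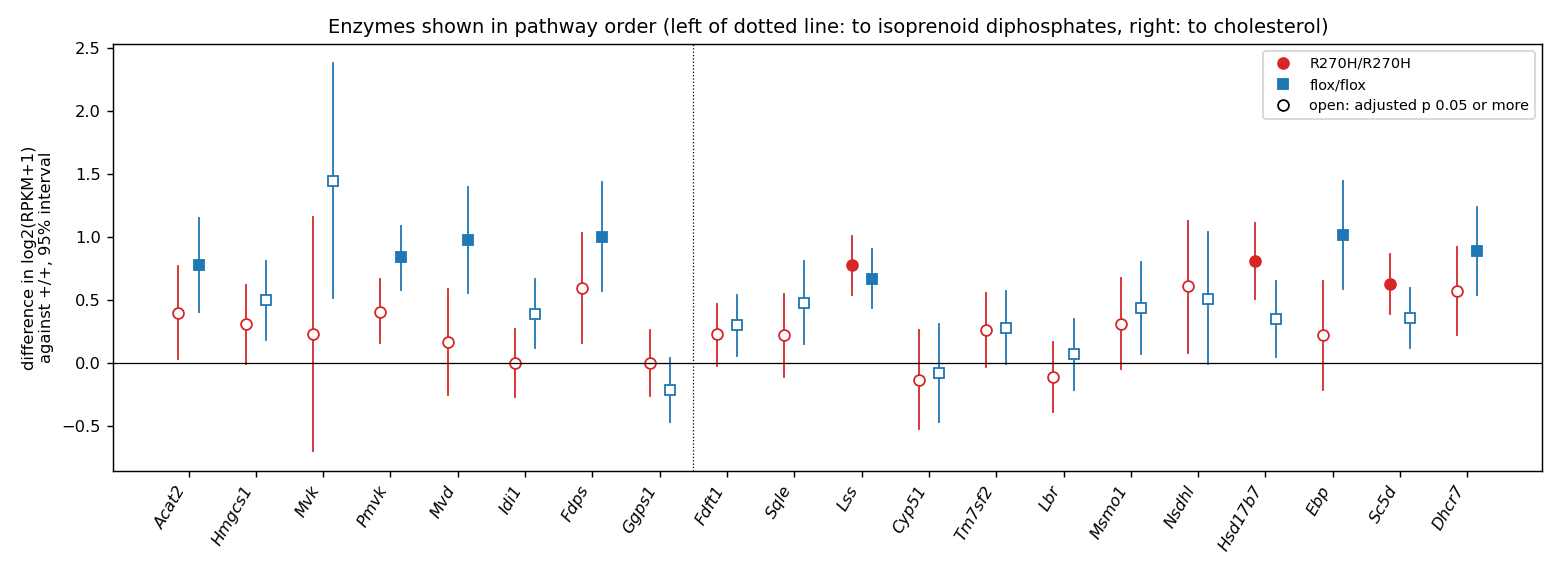
Difference from Trp53 +/+ in log2(RPKM+1) with 95% limma intervals (y axis) for 20 of the enzymes tested, in pathway order (x axis), with red circles for Trp53 R270H/R270H, blue squares for Trp53 flox/flox and open symbols for an adjusted p of 0.05 or more. Filled squares number 7 and filled circles 3, and only Lss has both.

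Over the 22 enzymes tested, both Trp53 +/+ libraries lay below the other 4 in 15, where 15.6% of all genes did so. Both Trp53 flox/flox libraries lay above the other 4 in 12, against 19.9% of all genes, and both Trp53 R270H/R270H libraries in 3 (Lss, Hsd17b7 and Sc5d), against 26.5%. No enzyme was highest in both Trp53 +/+ libraries, as 17.1% of all genes were. Of the 8 members, both Trp53 R270H/R270H libraries lay below the other 4 in 1 (Srebf2), against 18.7% of all genes. Of 7 genes for SREBP processing and control, only Insig1 passed, in Trp53 R270H/R270H, where 5.86% of all genes rose. The median of the 7 there was -0.17, beside 0.03 over all genes, and -0.02 in Trp53 flox/flox, the same as over all genes.

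In the list of efflux, ester and liver X receptor target genes 7 of 11 passed the filter, of which Abca1 and Mylip reached 4 RPKM only in Trp53 R270H/R270H. Their differences had a part in their passing and are therefore given as a description, with no test, and no count of calls is given for this list. Abca1, the cholesterol exporter, was at 3.06 and 2.97 RPKM in Trp53 +/+, 1.0 and 1.17 in Trp53 flox/flox, and 16.2 and 12.7 in Trp53 R270H/R270H. Against Trp53 +/+ its mean was 4.79-fold higher in Trp53 R270H/R270H and at least 2.78-fold lower in Trp53 flox/flox, where replicate 1 is at the floor. Mylip, a ubiquitin ligase gene and target of liver X receptors, was at the floor in both Trp53 +/+ libraries and at 5.18 and 4.8 RPKM in Trp53 R270H/R270H. That is at least 4.99-fold higher. Abcg1, a related exporter, was under the filter and not tested, at 3.02 and 3.07 RPKM in Trp53 R270H/R270H and at most 1.19 in the other 4 libraries. Soat1, which esterifies cholesterol, was at 74.6 and 77.4 RPKM in Trp53 +/+, 16.6 and 44.8 in Trp53 flox/flox, and 24.0 and 22.7 in Trp53 R270H/R270H. Both Trp53 +/+ libraries lay above the other 4. The difference from Trp53 +/+ was -1.66 in Trp53 R270H/R270H (limma adjusted p = 0.0684, interval -2.77 to -0.55). In Trp53 flox/flox it was -1.44 (adjusted p = 0.0908, interval -2.55 to -0.33), and neither passed.

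**Figure D4:**
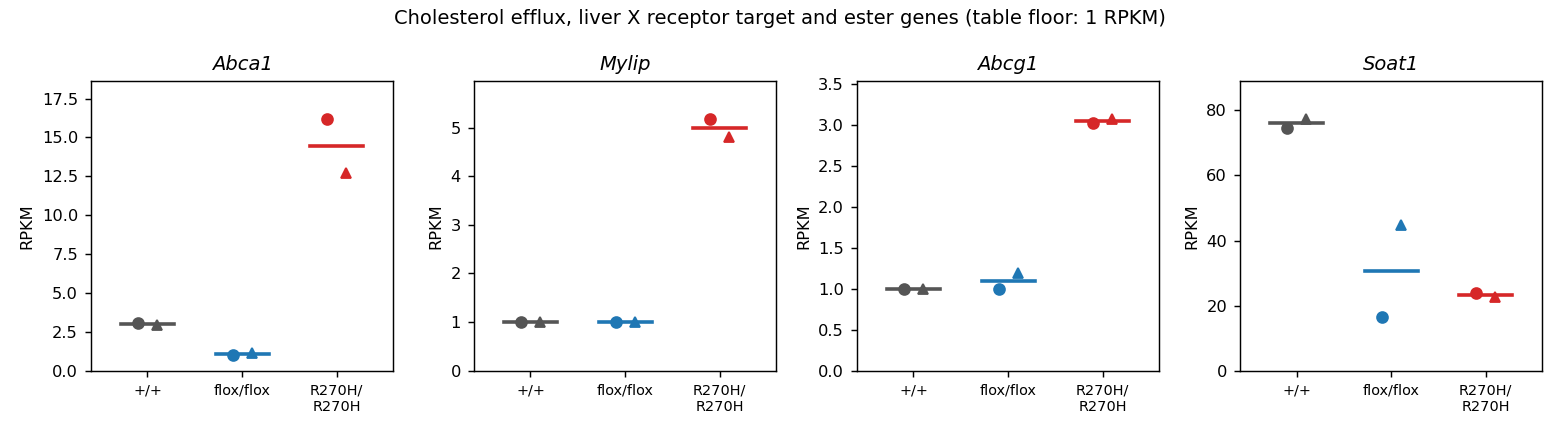
Level in RPKM (y axis, from 0) of Abca1, Mylip, Abcg1 and Soat1 in the 6 libraries by Trp53 genotype (x axis), with a circle for replicate 1, a triangle for replicate 2 and a bar for the mean. Abca1 is at 16.2 and 12.7 RPKM in Trp53 R270H/R270H and at or below 3.06 in the other 4 libraries, where 1 is the lowest value of the table.

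Of 7 uptake and trafficking genes tested, Scarb1, a lipoprotein receptor, rose in Trp53 flox/flox by 0.59 (adjusted p = 0.0394). Against Trp53 +/+, 0 were called in Trp53 R270H/R270H, with 0 also under an unadjusted p of 0.05. Scarb1 was lower in Trp53 R270H/R270H than in Trp53 flox/flox by -0.80 (adjusted p = 0.0139). Of 11 fatty acid genes, the desaturase Fads2 rose in both, by 0.70 in Trp53 R270H/R270H (adjusted p = 0.0176) and 0.81 in Trp53 flox/flox (adjusted p = 0.0166). Fads1 rose in Trp53 flox/flox as well, by 0.84 (adjusted p = 0.0358), where Gpam, which starts glycerolipid synthesis, fell by 0.70 (adjusted p = 0.0377). Of 8 genes that use isoprenoids, Fntb alone was called, lower in Trp53 R270H/R270H than in Trp53 flox/flox by -0.54 (adjusted p = 0.0243). For these lists the shares over all genes were as follows. Against Trp53 +/+, 5.86% rose and 6.36% fell in Trp53 R270H/R270H, and 4.38% rose and 6.9% fell in Trp53 flox/flox. Between the mutant genotypes, 13.6% were higher and 11.0% lower in Trp53 R270H/R270H.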

How the data were processed

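Per the study's methods, a stranded kit was used on poly(A) RNA, sequencing was done with an Illumina HiSeq, and the authors mapped reads to mm10 and calculated RPKM per gene with StrandNGS. mm10 also stands in the submitters' processing notes. The version, annotation and read filters are not given in the sources used here. The deposited RPKM table starts at 1, which looks like a floor put on smaller values (inferred, not stated), and 23760 genes are at 1 in all 6 libraries. Differences are on the log2(RPKM+1) scale, which understates changes of low genes.

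Read counts are not in the table. Depth was estimated from RPKM steps of 1 read in genes under 230 nt as 44.24 to 47.35 M mapped reads in 5 libraries (tolerance 0.1 read). Trp53 flox/flox replicate 1 rested on 7 values and was not settled. No counting interval is therefore given.

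The 10042 genes that reached 4 RPKM in any library were fitted with limma 3.58.1 in R 4.3.3 (lmFit, eBayes with trend, all 6 libraries, no block, two-sided, Benjamini-Hochberg at 0.05). An exact permutation test of 2 against 2 libraries cannot go below p = 0.333. Python 3.11.15, numpy 2.4.6 and pandas 2.3.3 were used for the rest. The code was tested on simulated data. The 8 genes are all named, and of each other list up to 3 called genes per comparison and Abca1, with Trp53, Cdkn1a and Mdm2 as a check of genotype. Abcg1, Soat1 and Acat2 were named after their values were seen. Some genes that meet this rule are not reported here. The members and lists were chosen with earlier results of these data known. Msmo1 is listed under Sc4mol, and March6 was not matched. Replicate numbers come from the sample titles. Alternatives were other pseudocounts, filters, scalings, variance models, blocks, fits of 2 genotypes and each library left out, and the block with exchanged numbers was chosen after seeing the data.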

Additional observations from a re-analysis of the deposited data

Results flagged for a closer look

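In 2 genes of the wider pathway lists the differences of the mutant genotypes from Trp53 +/+ had opposite signs. Abca1 exceeded its Trp53 flox/flox level by 2.88 in Trp53 R270H/R270H (log2 scale, at least 13.3-fold). It reached 4 RPKM only in Trp53 R270H/R270H, so this value is a description with no test. Nr1h2, a liver X receptor, was lower in Trp53 R270H/R270H than in the other mutant genotype by -1.0 (limma adjusted p = 0.0375), with 11.7 and 9.79 RPKM in Trp53 +/+, 14.2 and 17.3 in Trp53 flox/flox, and 5.75 and 9.24 in Trp53 R270H/R270H. Nr1h2 did not pass against Trp53 +/+ in either genotype.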

How the results depend on the processing

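The calls depend on how the spread is estimated, which 2 libraries per genotype limit. Of the 8 genes, 2 were called in Trp53 R270H/R270H against Trp53 +/+, 2 in Trp53 flox/flox against Trp53 +/+ and 1 between the mutant genotypes. With a weight for each genotype the counts were 6, 0 and 0, and with only the 2 genotypes compared 6, 0 and 0. Where these were 0, limma gave p under 0.05 without adjustment for 3 and 1 of the 8 with weights and for 7 and 2 with only the 2 genotypes. At those settings 59.6% and 57.0% of all genes were called in Trp53 R270H/R270H against Trp53 +/+. In Trp53 flox/flox against Trp53 +/+ the shares were 1.49% and 0.468%, and between the mutant genotypes 5.32% and 3.76%. Leaving out each library in turn gave 0 to 6, 0 to 7 and 0 to 4: 0 without any Trp53 +/+ or Trp53 R270H/R270H library and the highest counts without either Trp53 flox/flox library, the least alike pair. Of all genes, 0.0 to 1.13%, 0.0797 to 0.368% and 1.65 to 3.74% were called in the 3 comparisons without a Trp53 +/+ or Trp53 R270H/R270H library, and 57.1%, 40.4 to 68.5% and up to 72.3% without a Trp53 flox/flox library. Where limma called 0 of the 8 with a library left out, 2 or 3, 2 to 6, and 1 or 2 of the 8 had p under 0.05 without adjustment. With 5 libraries the lone one is assumed to vary like the others. For the 32 sterol pathway genes tested the counts were 4, 7 and 5, with genotype weights 21, 0 and 0, with only the 2 genotypes 19, 0 and 0, and 0 to 19, 0 to 24 and 0 to 19 leaving out each library.

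The replicate numbers did not pair the libraries (same-numbered deviations correlated at 0.117, -0.291 and -0.196). With the number as a block, 1, 0 and 0 of the 8 (2, 5 and 2 without adjustment) and 1, 1 and 0 sterol pathway genes were called, and after exchanging the numbers of Trp53 R270H/R270H 2, 2 and 1 of the 8 and 4, 7 and 3 of the pathway. Of all genes, 5.48%, 2.79% and 11.5% were called with the block, and 9.37%, 8.69% and 22.7% after the exchange. With no block these shares were 12.2%, 11.3% and 24.6%. The fit with no filter gave 3, 7 and 0 of the 8 and 9, 19 and 0 of the pathway, but it is not a usable test: all 23760 genes with the same value in every library, which cannot differ, were called in each comparison with Trp53 +/+. The same table without them is the filter above 1 RPKM, which gave 2, 2 and 3 of the 8, beside 15.4%, 11.8% and 24.6% of all genes. Between the mutant genotypes 2 of the 8 were called with 4 RPKM in both libraries of a genotype, beside 25.7% of all genes. With upper-quartile scaling 2 were called, beside 25.2%, and without the trend 3 pathway genes, beside 24.1%.

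The median of the 8 genes was 0.34 in Trp53 flox/flox against Trp53 +/+ and -0.12 between the mutant genotypes without Trp53 flox/flox replicate 1, and leaving out each library gave 0.34 to 0.49 and -0.28 to -0.12. Signs turned only where the difference was near 0: Idi1 in Trp53 R270H/R270H, to -0.02 with median-of-ratios scaling and to between -0.07 and 0.08 leaving out each library, and Srebf2 in Trp53 flox/flox, between -0.2 and 0.31 leaving out each library and below 0 only without its replicate 2. On the forward strand alone, CCAAT was found in 1 of the 6 members' windows and in 21.1% of all windows.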
